A study of Homo sapiens with 3 samples.

Results

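The genes described here are PTK2, SRC, FYN, YES1, LYN, PXN, BCAR1, EZR, ROCK1 and ROCK2, which encode kinases, scaffolds and a membrane linker of cell-matrix adhesions. They were chosen by name, and all of their probe sets (groups of short array probes summarised to a single signal) were taken, which gave 10 of 18132 named genes and 35 of 49293 probe sets. The cells were KYSE150, an established human esophageal squamous carcinoma line, transfected with an empty vector, with wild-type LOXL2 or with the LOXL2 splice form Δe13. LOXL2 is a secreted amine oxidase that cross-links matrix proteins. Each group was 1 PrimeView array of total RNA, 3 in all, so nothing could be tested, and every statement describes these arrays. Whether the transfected cells were pools or single clones, and which promoter drove LOXL2, was not given in the sources used here.

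Where a cell grips its matrix, clustered integrins recruit focal adhesion kinase (FAK, the product of PTK2) and kinases of the Src family, which phosphorylate each other and the scaffolds paxillin (PXN) and p130Cas (BCAR1). The ROCK kinases drive contraction of the actin fibres anchored there, and ezrin (EZR) ties actin to the plasma membrane. Much of this signalling runs through phosphorylation, which an RNA array does not read.

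FYN was higher in the LOXL2 Δe13 array than in the wild-type LOXL2 array by 0.67 on the log2 scale, or 1.59-fold, and was the 1 gene of the 10 to reach 1.5-fold in any comparison. PXN was lower in both LOXL2 arrays than in the empty vector array, by 0.28 with wild-type LOXL2 and by 0.17 with Δe13 on its brightest probe set. Its 7 probe sets above the background floor were all lower, as were all such probe sets of 30.5% and 30.4% of genes with 2 or more. Those shares include genes with as few as 2 such probe sets, so they are not matched to the 7 of PXN. The range of PXN over the 3 arrays was reached by 2739 of 10703 genes. PTK2, SRC, YES1, LYN, BCAR1, EZR, ROCK1 and ROCK2 differed by less than 1.2-fold in all 3 comparisons on the probe sets that represent them. For EZR and ROCK2, other probe sets of the same gene gave larger differences.

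The arrays had log2 medians of 5.95 with Δe13, 5.93 with the wild type and 5.95 with the empty vector. The LOXL2 probe sets were read as a check of the labels. Probe set 11718833_a_at read 10.77 with Δe13, 10.22 with the wild type and 5.06 with the empty vector, and 11751288_a_at was high with the wild type alone (14.05, against 7.41 with Δe13 and 7.46 with the empty vector). Probe set 11718834_at was also higher with both, by 2.56 and 2.69, while 11718832_a_at was not, at 8.73 with Δe13, 8.32 with the wild type and 8.81 with the empty vector. Which parts of LOXL2 they read was not given. Of 5 squamous epithelial markers measured (KRT5, KRT14, CDH1, DSG3 and SFN), 5 had a mean above the floor of 5.94, the median of all non-control values. The basal keratin KRT14 differed from the empty vector by -0.67 with the wild type and -0.45 with Δe13, on 1 probe set. The leukocyte markers PTPRC, CD3E, CD14 and CD53 stayed below it on every array, while LCP1, an actin bundler also made by many carcinomas, read between 11.72 and 11.78. The summed linear signal of these 5 leukocyte markers was 3607 with Δe13, 3457 with the wild type and 3540.0 with the empty vector, nearly all of it from LCP1. Of 6 fibroblast and 4 endothelial markers, 1 each had a mean above the floor, PDGFRB at 6.04 to 6.17 and PECAM1 at 5.86 to 6.22.

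Upstream sequence is shown for FYN, the gene with the widest range over the arrays, and for PXN, the gene with the most probe sets. RefSeq (GRCh38.p14) lists 4 start windows for FYN and 2 for PXN, and the array signal does not tell the starts apart. The most upstream window of each gene is shown, with FYN window 3, the FYN window with the lowest share of G and C. Each line below holds the 250 bases before a start, 5′ to 3′ on the gene's strand, with matches to GGGCGG (the GC box bound by SP and KLF factors, searched on both strands) in capitals. FYN window 1 lies at chr6:111873453-111873702 and FYN window 3 at chr6:111759918-111760167, and PXN window 1 lies at chr12:120265731-120265980, all on the minus strand.
FYN window 1: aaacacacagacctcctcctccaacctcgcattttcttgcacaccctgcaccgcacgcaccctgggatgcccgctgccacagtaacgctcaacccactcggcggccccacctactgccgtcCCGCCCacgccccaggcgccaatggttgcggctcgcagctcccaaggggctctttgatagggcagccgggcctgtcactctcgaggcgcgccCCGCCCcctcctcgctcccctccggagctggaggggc
FYN window 3: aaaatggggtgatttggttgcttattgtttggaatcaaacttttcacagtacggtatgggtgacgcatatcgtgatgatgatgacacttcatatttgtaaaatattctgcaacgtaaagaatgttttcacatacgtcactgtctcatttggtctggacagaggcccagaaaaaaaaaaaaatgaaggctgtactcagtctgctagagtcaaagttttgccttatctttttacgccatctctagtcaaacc
PXN window 1: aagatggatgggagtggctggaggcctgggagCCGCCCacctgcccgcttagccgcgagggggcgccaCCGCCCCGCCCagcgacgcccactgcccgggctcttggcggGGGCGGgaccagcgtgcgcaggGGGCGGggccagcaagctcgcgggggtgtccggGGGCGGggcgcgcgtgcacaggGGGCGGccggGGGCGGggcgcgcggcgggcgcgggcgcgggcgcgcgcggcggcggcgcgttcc
FYN window 1 is 68.8% G and C with 2 GC boxes, and FYN window 3 is 38.0% G and C with 0. PXN window 1 is 83.6% G and C with 8 GC boxes, a base composition at percentile 99.1 of the 35116 windows in the table, whose median is 58.0%. A GC box stands in 42.6% of all those windows. The AP-1 motif TGANTCA (in 6.57% of all windows) and the TEAD motif GGAATG (in 11.9%) were also searched on both strands and had 0 matches in these 3 windows. Of the 3 windows not shown, FYN window 2 is 80.8% G and C with 8 GC boxes, FYN window 4 is 45.6% with 0, and PXN window 2 is 53.6% with 0 GC boxes and 1 TEAD match. These matches describe letters and not binding.

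Focal adhesion kinase, which relays integrin contact into the cell, showed little difference at the RNA level. The brightest PTK2 probe set, 11716374_s_at, read a log2 signal of 9.61 with Δe13, 9.70 with the wild type and 9.63 with the empty vector. The wild-type array was the highest and the other arrays were 0.02 apart. Probe set 11716373_a_at read 7.36, 7.42 and 7.35, and 11747793_a_at read 7.21, 7.23 and 7.06, in the same order. All 3 were higher with the wild type than with the empty vector, by 0.06 to 0.17, and all 3 were lower with Δe13 than with the wild type, by 0.03 to 0.09. Their direction against the empty vector in the Δe13 array was mixed, from -0.02 to 0.14.

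PXN encodes paxillin, the adaptor on which FAK, Src and their partners assemble. Its probe set 11736017_s_at read a log2 signal of 11.56 with Δe13, 11.44 with the wild type and 11.73 with the empty vector. The empty vector array was the highest and the wild-type array the lowest, and this order held on 7 of 7 PXN probe sets above the floor. The differences of those 7 from the empty vector ran from -0.40 to -0.24 in the wild-type array and from -0.17 to -0.06 in the Δe13 array, and Δe13 was above the wild type by 0.10 to 0.26. The deepest was 11717617_a_at in the wild-type array, at 8.49 against 8.89, or 1.32-fold lower.

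Error and background were read beside the PXN values. The standard deviation of differences between probe sets of the same gene, for probe sets with a mean signal of 11 to 12, was 0.106 when the wild type and 0.088 when Δe13 was set against the empty vector. Only the brightest PXN probe sets lie there, and the dimmer ones above the floor had means from 6 to 9, where this error was larger. At 6 to 7, 7 to 8 and 8 to 9 it was 0.181, 0.160 and 0.162 for the wild type. For Δe13 it was 0.142, 0.127 and 0.136. The values at 7 to 8 and 8 to 9 include probe sets of LOXL2, the transfected gene. At 8 to 9, LOXL2 probe set 11718833_a_at differed from the empty vector by 5.16 with the wild type and 5.71 with Δe13. This standard deviation measures disagreement between probe sets, not the spread between cultures, and probe sets of a gene may share probes. The other 3 PXN probe sets, with means below the floor, did not keep the order: 11752827_a_at differed by 0.06 with Δe13 and 0.08 with the wild type, 11752828_x_at by 0.35 and 0.12, and 11748796_a_at by 0.37 and -0.21. The 12 background control probe sets with 14 or more G or C bases had median differences from the empty vector of -0.20 with the wild type and -0.06 with Δe13, while those of the 11 with fewer were 0.01 and 0.00. The part of this shift in the PXN result was not tested.

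BCAR1, whose product p130Cas is a Src substrate that links adhesions to Rac activation through CRK, was level across the arrays. Its brightest probe set, 11750641_x_at, read a log2 signal of 7.93 with Δe13, 7.86 with the wild type and 7.87 with the empty vector. No array stood apart. The 5 BCAR1 probe sets gave differences of -0.06 to 0.08 for Δe13 and -0.13 to 0.12 for the wild type against the empty vector, with signs in both directions. All 5 carry the suffix _x_at, which the array maker gives to probe sets that may cross-hybridise, so BCAR1 had no value without such probe sets.

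**Figure D1:**
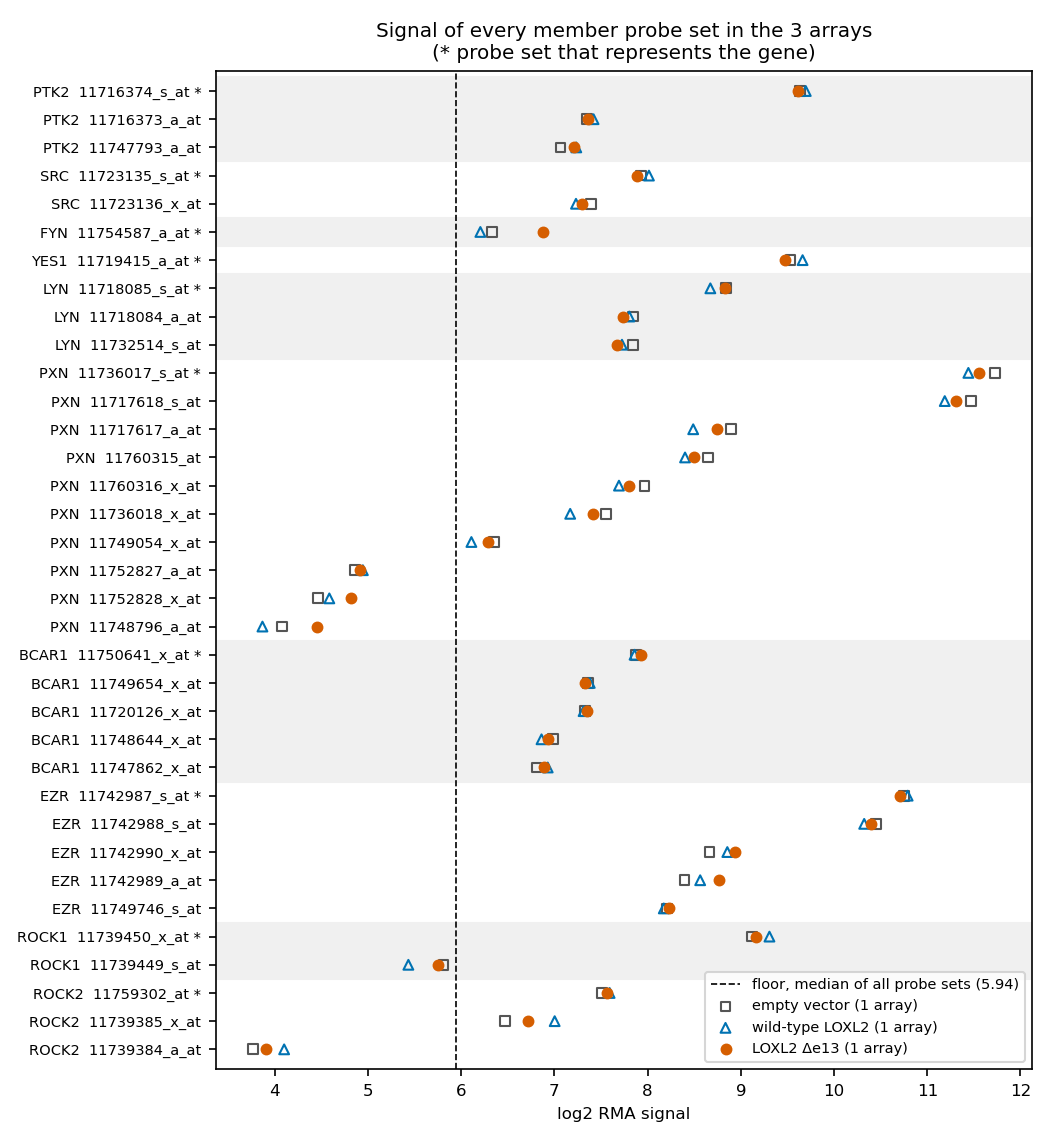
Log2 RMA signal (horizontal axis) of each of the 35 probe sets of the 10 genes (rows), with 1 symbol per array for the empty vector, wild-type LOXL2 and LOXL2 Δe13; an asterisk marks the probe set that represents the gene, and the dashed line is the floor at 5.94. The FYN point of the Δe13 array stands to the right of both others, and in the 7 PXN rows above the floor the empty vector point is the rightmost and the wild-type point the leftmost.

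The Src family kinases share their domain plan and can stand in for each other in many cells, with SRC, FYN and YES1 broadly expressed and LYN best known from blood cells. SRC itself read a log2 signal of 7.88 with Δe13, 8.01 with the wild type and 7.93 with the empty vector on 11723135_s_at. Its other probe set, 11723136_x_at, read 7.30, 7.23 and 7.39. The wild-type array was the highest on the first and the lowest on the second, so the direction for the wild type (0.09 and -0.16) was not settled between them. Both were slightly lower with Δe13 than with the empty vector, at -0.04 and -0.09.

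FYN was read by a single probe set, 11754587_a_at, at a log2 signal of 6.87 with Δe13, 6.21 with the wild type and 6.33 with the empty vector. The Δe13 array stood above the other arrays, which lay 0.12 apart. The difference from the empty vector was 0.55 for Δe13 (1.46-fold) and -0.12 for the wild type. The wild-type signal was at percentile 53.9 of its array and the Δe13 signal at percentile 63.1, so FYN was dim throughout, and at such signals (6 to 7) the standard deviation between probe sets of a gene was 0.147 for Δe13 minus the wild type and 0.142 for Δe13 minus the empty vector. FYN has no second probe set here against which to check the value.

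Against all genes, FYN was the 8th highest of 10847 genes above the floor for Δe13 minus the wild type, of which 0.184% were at least 1.5-fold higher. For Δe13 minus the empty vector it ranked 54 of 10878 from the top. Its range over the 3 arrays, 0.67, was reached by 177 of 10703 genes whose mean passed the floor. The FYN difference was known when the genes were chosen, so these ranks describe it and support nothing.

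YES1, the close relative of SRC and FYN, ran the other way from FYN on its single probe set. Probe set 11719415_a_at read a log2 signal of 9.47 with Δe13, 9.66 with the wild type and 9.53 with the empty vector. The wild-type array was the highest. The differences were 0.13 for the wild type and -0.06 for Δe13 against the empty vector, and -0.19 for Δe13 minus the wild type, the lowest value of the 10 genes in that comparison, at 1.14-fold. The standard deviation between probe sets at signals of 9 to 10 was 0.151 there. That value includes the LOXL2 probe set 11751288_a_at, which differed by -6.64 between these arrays. At signals of 8 to 9 it was 0.117, also with LOXL2 probe sets, and at 10 to 11, without any, 0.084.

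LYN gave a log2 signal of 8.83 with Δe13, 8.67 with the wild type and 8.84 with the empty vector on 11718085_s_at, and 2 dimmer probe sets read between 7.67 and 7.84. All 3 were lower in both LOXL2 arrays than in the empty vector array, by 0.01 to 0.17 with Δe13 (-0.17 to -0.01) and by 0.04 to 0.17 with the wild type (-0.17 to -0.04). Between the LOXL2 arrays they disagreed, with 11718085_s_at at 0.16 and the others at -0.07 and -0.05. Of the 5 leukocyte markers, PTPRC, CD14 and CD53 read at most 4.62, CD3E between 5.34 and 5.58 and LCP1 at least 11.72, and their part in the LYN signal was not tested.

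EZR encodes ezrin, a linker of the ERM family between cortical actin and membrane proteins. Its brightest probe set, 11742987_s_at, read a log2 signal of 10.71 with Δe13, 10.79 with the wild type and 10.75 with the empty vector, and 11742988_s_at read 10.39, 10.32 and 10.45. No array stood apart on them. On 11742989_a_at the signals were 8.77, 8.56 and 8.40, and on 11742990_x_at they were 8.93, 8.86 and 8.66, with both LOXL2 arrays above the empty vector. These 2 probe sets, which the platform annotation ties to the same source sequence, differed by 0.37 and 0.27 for Δe13 and by 0.17 and 0.19 for the wild type. The fifth, 11749746_s_at, differed by 0.02 and -0.04. The EZR probe sets thus disagreed by more than the typical 0.126. That is the standard deviation between probe sets of a gene for Δe13 minus the empty vector, with LOXL2 included. Which transcripts each EZR probe set reads was not given in the sources used here.

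ROCK1 and ROCK2 encode kinases that raise myosin light chain phosphorylation and so contractility. ROCK1 probe set 11739450_x_at read a log2 signal of 9.16 with Δe13, 9.31 with the wild type and 9.12 with the empty vector. The wild-type array was the highest, by 0.19 over the empty vector, and Δe13 was 0.04 above the empty vector. A second ROCK1 probe set, 11739449_s_at, lay below the floor at 5.76, 5.43 and 5.81, with the wild type the lowest (-0.38). One more probe set is shared by ROCK1 and the pseudogene ROCK1P1 and was not used. The ROCK1 probe set above the floor carries the suffix _x_at, so it too may cross-hybridise.

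ROCK2 was within 1.2-fold on its brightest probe set, 11759302_at, at log2 signals of 7.56 with Δe13, 7.59 with the wild type and 7.51 with the empty vector. Its second probe set, 11739385_x_at, spread further, with 6.72, 7.0 and 6.47. There the wild-type array was the highest and the empty vector the lowest, with differences of 0.54 (1.45-fold) for the wild type and 0.25 for Δe13. The third, 11739384_a_at, kept that order below the floor at 3.90, 4.10 and 3.77. All 3 ROCK2 probe sets thus placed the wild type above Δe13 and Δe13 above the empty vector, with sizes from 0.08 to 0.54 for the wild type. At signals of 6 to 7 the standard deviation between probe sets was 0.181 for the wild type minus the empty vector.

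**Figure D2:**
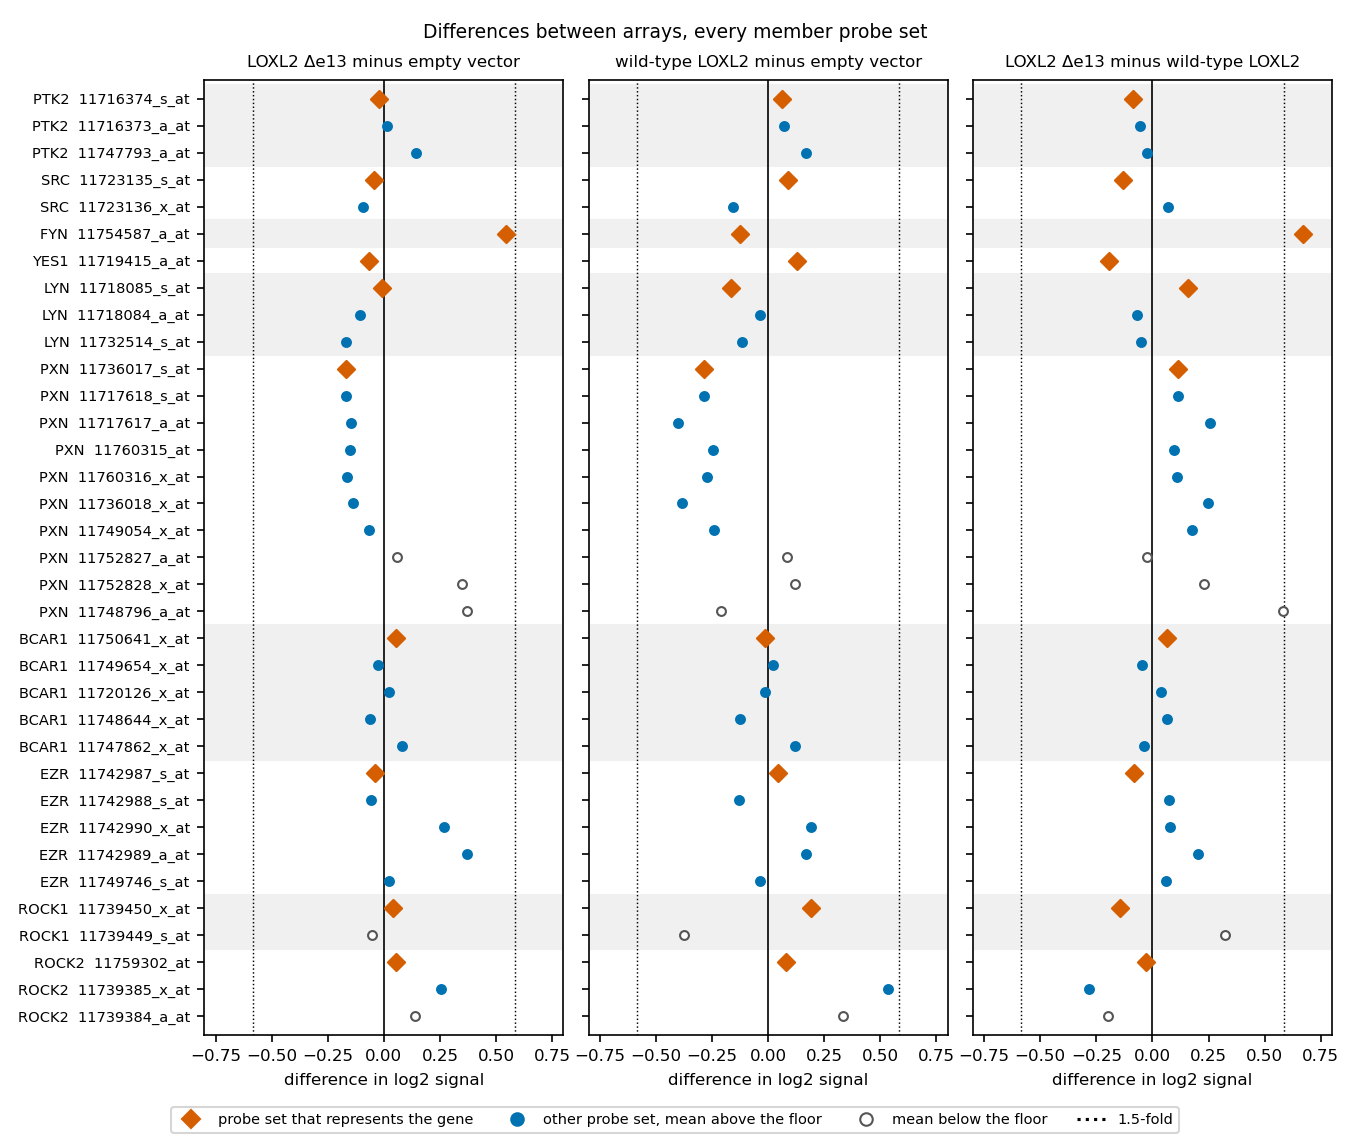
Difference in log2 signal (horizontal axis) of each of the 35 probe sets (rows) in the 3 comparisons (panels); diamonds are the probe sets that represent the genes, filled circles other probe sets with a mean above the floor, open circles those below it, and dotted lines mark 1.5-fold. FYN at 0.67 lies beyond the dotted line in the right panel, and the 7 PXN probe sets above the floor lie left of 0 in the left and middle panels.

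Counted together, the 10 genes stayed close to the bulk of the array. At least 1.5-fold higher were 0 of 10 for Δe13 minus the empty vector (0.359% of 10878 genes), 0 of 10 for the wild type minus the empty vector (2.02% of 10881) and 1 of 10 for Δe13 minus the wild type (0.184% of 10847). At least 1.5-fold lower were 0 of 10 in each, against 0.303%, 0.919% and 0.12% of genes. With a threshold of 1.2-fold, FYN was the 1 gene higher for Δe13 minus the empty vector (5.98% of all genes) and for Δe13 minus the wild type (3.82%), and PXN was the 1 gene lower for the wild type minus the empty vector (11.2%). In the opposite directions 0 of 10 passed 1.2-fold, against 5.48%, 5.34% and 14.7% of all genes in the same order. Against the empty vector, the median of the 10 was -0.02 with Δe13 and 0.05 with the wild type, where all genes above the floor had -0.01 and 0.00. Between the LOXL2 arrays it was -0.06 (Δe13 relative to the wild type), where all genes had -0.015. The median range of the 10 over the 3 arrays was 0.149, against 0.183 for all genes whose mean passed the floor.

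Agreement between probe sets could be read for the 7 genes with 2 or more of them above the floor. For Δe13 minus the empty vector, ROCK2 was higher on all of them (27.9% of 5962 genes were), and LYN, PXN and SRC were lower on all (30.4%). For the wild type minus the empty vector, PTK2 and ROCK2 were higher on all (34.2%), and LYN and PXN lower (30.5%). For Δe13 minus the wild type, PXN was higher on all (22.5%), and PTK2 and ROCK2 lower (33.0%). Such shares amount to about 2 of 7 genes, so the counts of 1 to 3 are near the background and are no result about these genes. The comparisons with the empty vector share that array, so its own deviation enters both. Likewise, the wild-type array enters both of its comparisons, with opposite signs. Δe13 minus the wild type follows from the comparisons with the empty vector and is no separate agreement.

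**Figure D3:**
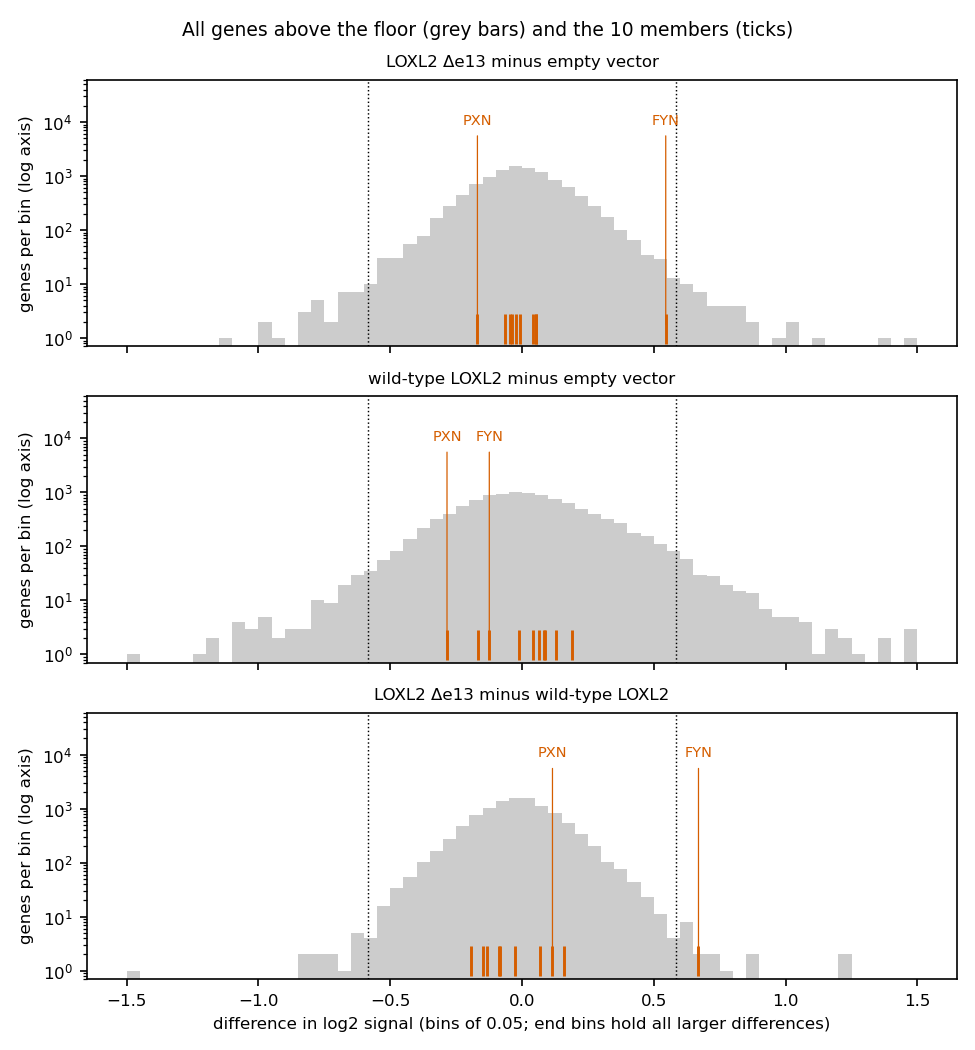
Difference in log2 signal (horizontal axis) against the number of genes per bin (log axis) for all genes above the floor, with a tick for each of the 10 genes, 1 panel per comparison and dotted lines at 1.5-fold. The ticks sit within the bulk of the distribution apart from FYN, at 0.55 in the top panel and 0.67 in the bottom panel.

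The genes above the floor whose 2 differences from the empty vector were nearest to those of FYN, by Euclidean distance among 10702 genes, were IGFL1 (distance 0.083), PCDHA4 (0.136), KRTAP2-3 (0.150), ARRDC3 (0.205) and RGMB (0.220). IGFL1, a secreted protein of the IGF-like family, read log2 signals of 7.77 with Δe13, 7.18 with the wild type and 7.31 with the empty vector. PCDHA4, a protocadherin, read 6.93, 6.44 and 6.51. KRTAP2-3, a keratin-associated protein gene, read 7.21, 6.75 and 6.76. In these 3 genes, as in FYN, the Δe13 array was the highest and the other arrays were close. They were picked by those differences, so this likeness was fixed by the choice. With 3 arrays, likeness rests on 2 differences for each gene.

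The other genes of the pathway were taken as 4 lists chosen by function. None of their genes above the floor reached 1.5-fold in any comparison. Other Src family members and Src regulators were mostly lower in both LOXL2 arrays, with 13 of 15 below 0 and a median of -0.11 for Δe13, and 13 of 15 below 0 and a median of -0.13 for the wild type. Over all genes, 51.5% and 49.9% were below 0. FGR entered with a mean below the floor, through the arrays where it was high. Without it 12 of 14 were below 0 in each comparison, with medians of -0.12 and -0.13. Both counts use the same empty vector array, and 21 of the 23 listed genes had a probe set of their symbol alone. Named from this list were the adaptor SHC1 (-0.31 for Δe13 and -0.42 for the wild type, with 1 of its 3 probe sets higher for Δe13), the Src-related kinase PTK6 (-0.28 and -0.35) and CAV1, the main protein of caveolae and a Src substrate (-0.22 and -0.33 on its brightest of 4 probe sets, all lower). CAV1 read 12.92 with Δe13, 12.81 with the wild type and 13.14 with the empty vector. GC-rich background probe sets were lower in the same arrays, as given for PXN, and their part in this list's values was not tested.

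FAK partners and adaptors had 18 genes above the floor, of which 8 were higher and 10 lower for Δe13 as for the wild type. Their medians were -0.03 and -0.02, against -0.01 and 0.00 for all genes, of which 51.5% and 49.9% were lower. PIK3R1, the regulatory subunit of PI3 kinase, was 0.55 higher with the wild type and 0.24 higher with Δe13, on 2 of 2 probe sets. The engulfment adaptor ELMO2, a partner of DOCK1 in Rac activation, was 0.41 and 0.38 higher on its 1 probe set. GRB7, an SH2 adaptor that binds FAK, was lower, at -0.42 with the wild type and -0.23 with Δe13 on 2 of 2 probe sets. Between the LOXL2 arrays, 10 of 18 were higher with Δe13, with a median of 0.06, against 45.2% of all genes and their median of -0.015. This lean was not particular to the list. Higher with Δe13 were also 9 of 15 other Src family members and Src regulators (8 of 14 without FGR), with a median of 0.01. So were 13 of 24 integrin-actin linkers (median 0.02) and 7 of 12 ERM proteins and partners (median 0.01).

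Integrin-actin linkers had 25 genes above the floor against the empty vector, with 15 higher for Δe13 (median 0.01) and 11 higher for the wild type (median -0.02). Of all genes, 51.5% and 49.9% were below 0, with medians of -0.01 and 0.00. FERMT1, which encodes kindlin-1, an activator of integrins in epithelia, was lower by about the same amount in both arrays, at -0.51 for Δe13 and -0.49 for the wild type on 3 of 3 probe sets. It read 9.57, 9.59 and 10.08 in the Δe13, wild-type and empty vector arrays. The LIM protein AJUBA was lower with Δe13 on 3 of 3 probe sets (-0.27 on the brightest) and gave -0.12 with the wild type, where 2 of 3 probe sets were higher. LIMS2 had a mean below the floor (5.84, 5.71 and 6.02) and entered through the empty vector array alone, which fixed its lower values of -0.17 and -0.30. Without it, 15 of 24 were higher for Δe13 and 11 of 24 for the wild type.

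ERM proteins and partners had 12 genes above the floor, with 9 lower for Δe13 (median -0.06) and 7 lower for the wild type (median -0.07). Of all genes, 51.5% and 49.9% were lower, with medians of -0.01 and 0.00. ICAM1, an adhesion receptor that binds ERM proteins, was at -0.50 with the wild type and -0.08 with Δe13 on 3 of 3 lower probe sets, and so 0.41 higher with Δe13 than with the wild type. LGALS3BP, a secreted glycoprotein, was at -0.49 and -0.39 on 1 probe set, and the polarity scaffold SCRIB at 0.38 and 0.27 on 3 of 3.

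**Figure D4:**
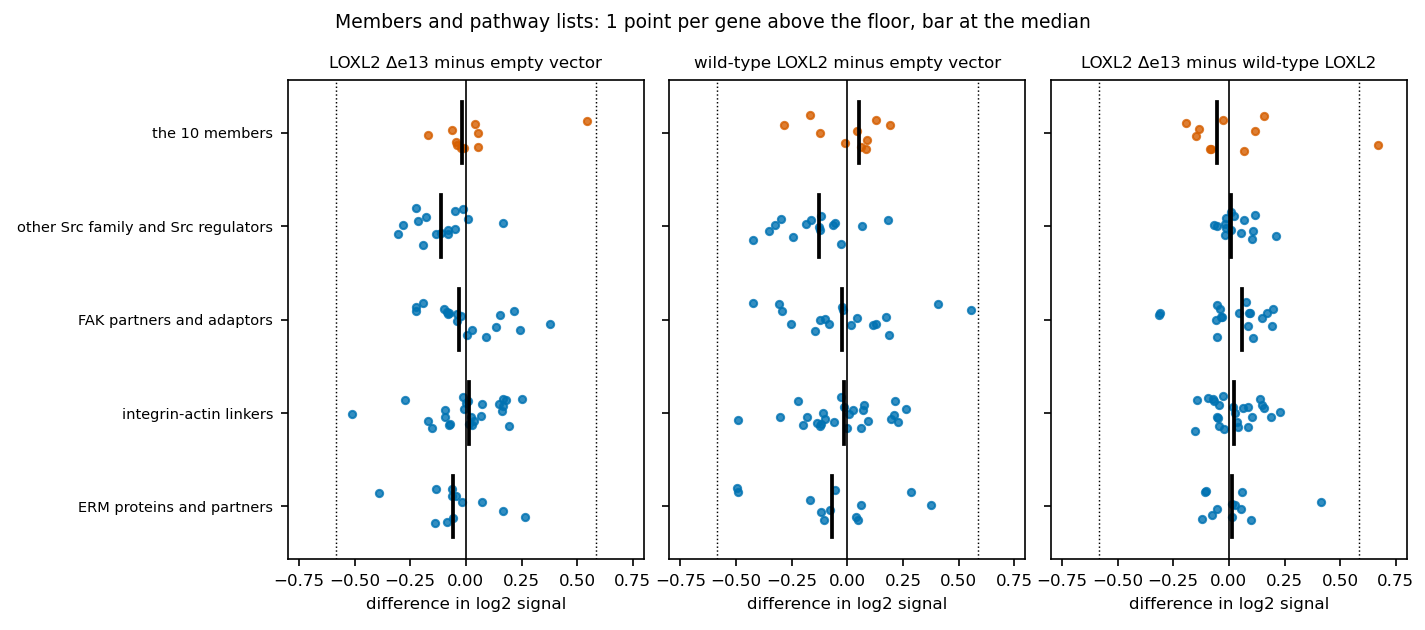
Difference in log2 signal (horizontal axis) of each gene above the floor in the 10 genes and the 4 pathway lists (rows) for the 3 comparisons (panels), with a bar at each median and dotted lines at 1.5-fold; vertical scatter within a row has no meaning. No list gene passes the dotted lines, and the row of other Src family members and Src regulators has its median left of 0, at -0.11 and -0.13, in the left and middle panels.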

How the data were processed

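Total RNA was turned into biotin-labelled cRNA, per the labels' protocols, and read on PrimeView arrays, per the series design. The authors deposited log2 signals per probe set, made with RMA, per the submitters' processing notes; its version was not given in the sources used here. Values from 2.07 to 14.56 showed the log2 scale. RMA normalizes between arrays, so a shift of most genes one way would not show.

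Symbols came from the platform annotation, updated through Entrez IDs in RefSeq. Of the 49293 non-control probe sets, 44988 (91.3%) had a single symbol, 1832 had several and 2473 had none. The probe set with the highest mean stood for its gene, and genes were compared where the higher of both values reached 5.94. Named genes were the 10 members, LOXL2, per list the members at least 1.5-fold apart or otherwise the 3 with the largest difference, the 5 genes nearest to the member with the widest range, and the marker genes. List genes with no probe set of their symbol alone were not analysed here, and 1 further list is not reported here.

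The members and lists were chosen with earlier results of these data known. The rules were tested on simulated data. Python 3.11.15 ran statsmodels 0.14.6 for loess and matplotlib 3.10.9 for plots, with scipy 1.17.1, pandas 2.3.3 and numpy 2.4.6.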

Additional observations from a re-analysis of the deposited data

How the results depend on the processing

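The alternatives took the median of each gene's probe sets, left out probe sets ending in _s_at or _x_at, dropped the floor or raised it to the 75th percentile (7.86), or used median centring, quantile normalization, loess or thresholds of 1.2-fold and 2-fold. SRC, BCAR1 and ROCK1 had no value without probe sets ending in _s_at or _x_at. With 1 array per group no array could be left out. No paired analysis was possible because each group has 1 array and no test was run. Of 195 values of single genes, 183 moved by less than the standard deviation between probe sets (taken with LOXL2 included) and 12 by more. Dropping or raising the floor keeps the probe set that represents a gene, so those values among the 183 could not move. All 12 came from taking the median or from leaving out probe sets ending in _s_at or _x_at. The sign changed in 13 of the 195, all with a reported difference under 1.2-fold. The 3 values of at least 1.2-fold were FYN in 2 comparisons, whose single probe set the probe set alternatives cannot change, and PXN in 1. Rescaling the arrays changed 1 of 90 signs, that of BCAR1 for the wild type minus the empty vector, and moved values by at most 0.05. The median signal over probe sets picks the probe set of middle brightness, so EZR took the 0.27 of 11742990_x_at for Δe13 and ROCK2 the 0.54 of 11739385_x_at for the wild type against the empty vector. The median of the 5 EZR differences was 0.02.

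With the floor at the 75th percentile, which leaves out dim genes, 8 genes entered, without FYN and ROCK2. With FYN out, 0 genes were at least 1.5-fold higher for Δe13 minus the wild type. Fewer genes also had 2 or more probe sets above that floor. All probe sets were then higher in 0 genes for Δe13 and in 0 for the wild type against the empty vector, lower in 1 for each, and lower in 0 for Δe13 minus the wild type. Without a floor, which adds dim probe sets, all were lower in 1 gene for the wild type minus the empty vector. They were lower in 2 genes, not 3, for Δe13 minus the empty vector, and higher in 0 for Δe13 minus the wild type. At 1.2-fold, 1 gene was higher for Δe13 minus the empty vector and 1 lower for the wild type minus the empty vector. At 2-fold, 0 genes were higher for Δe13 minus the wild type.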
